A study of Mus musculus with 17 samples.

Results

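The peptide loading complex and the immunoproteasome of mouse plasmacytoid dendritic cells were followed through 10 genes: Tap1, Tap2, Tapbp, Tapbpl, B2m, Pdia3, Calr, Psmb8, Psmb9 and Psmb10. Members were the genes on this list with a probe set annotated to that symbol and no other. All 10 were found, with 1 probe set each, among 19751 genes and 24680 probe sets. Tapbp is also listed on 2 further probe sets together with Rps3a1, and these were not used.

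MHC class I molecules show short peptides from inside the cell to CD8 T cells. Proteasomes cut proteins into these peptides, the TAP transporter carries them into the endoplasmic reticulum, and a loading complex of tapasin, ERp57 and calreticulin holds the class I molecule until a peptide fits. Interferons are known to replace the constitutive catalytic subunits by the immunoproteasome subunits, and dendritic cells use this pathway to present viral and tumour antigens.

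The study measured total RNA on 17 single-channel arrays of plasmacytoid dendritic cells, the interferon-producing dendritic cells that sense DNA through TLR9. The cells came from bone marrow of C57BL/6 mice and were enriched with magnetic beads. A cell sorter then took those with intermediate CD11c that carried B220 and Siglec-H. Genotype was the same in all groups, and age and pooling of animals were not given in the sources used here. Medium had 2 arrays (replicates 1 and 3). Each of the other groups had 3: LIF alone, either class of CpG oligonucleotide alone (CpG-A or CpG-B), and either class together with LIF. LIF, a cytokine of the gp130 and STAT3 pathway, was used at 10 ng/ml for 20 to 24 h. It preceded CpG by 1 h where both were given. CpG DNA, a ligand of TLR9, was used at 6 µg/ml for 19 to 23 h in the protocol and 18 to 24 h in the design text.

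Each deposited value holds the digits of a linear intensity without its decimal mark, so its power of 10 is unknown. A value is therefore given here as its digits scaled to lie between 1 and 10, and levels of different genes cannot be compared. On the log2 scale a difference between groups is then known only up to whole steps of 3.32, and the reading closest to 0 is printed, between -1.66 and 1.66. A called reading of up to 1.11 in size (2.15-fold) was said to be higher or lower, since the other reading is then at least 4.64-fold the opposite way. This takes it that no change was that large, which was not tested. Larger readings are given with the other reading, and their direction is not readable. Readings that did not pass the test may hide a change near 10-fold. Calls are at an adjusted p under 0.05 from limma over all genes.

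Across all genes the median SD within groups was 0.19 on the log2 scale, and the median absolute deviation of an array from its group mean lay between 0.0874 and 0.116. Arrays give no counting depth, and their number limits the precision. Nothing in the labels says whether replicates were separate mice or cultures, so p-values measure the spread between these samples, which may be technical. In such bulk RNA, fewer cells of a type and less RNA per cell cannot be told apart. The cell type could not be checked by the level of its markers, since levels are lost. Of 11 measured plasmacytoid dendritic cell markers, 6 were called in CpG-A vs medium, 8 in CpG-B vs medium and 0 in LIF vs medium. Among markers of other cells, the numbers called in CpG-A and in CpG-B vs medium were 4 and 2 of 8 for B cells, 2 and 3 of 8 for T and NK cells, and 3 and 4 of 9 for neutrophils and myeloid progenitors. They were 3 and 4 of 8 for monocytes and macrophages, 4 and 6 of 8 for conventional dendritic cells and 1 and 1 of 4 for erythroid cells. The shares over all genes beside these counts are again 16.7% for CpG-A and 19.2% for CpG-B, and some of these short lists lie near them. In LIF vs medium limma called 0 of all 56 marker entries, with 11 at an unadjusted p under 0.05. No share over all genes is given at that unadjusted threshold. Their part in the results was not tested.

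Sequences from 250 bases before to 50 bases after the start of each gene (RefSeq, build GRCm38.p6) were available for 8 members; Tap2 and Tapbpl had none. Windows are shown for Tap1, which shares its upstream region with Psmb9, and for B2m and Calr, which held motifs of interferon and endoplasmic reticulum stress control. Capitals mark matches to the motifs searched, on either strand.
Tap1, chr17:34187306-34187605, plus strand: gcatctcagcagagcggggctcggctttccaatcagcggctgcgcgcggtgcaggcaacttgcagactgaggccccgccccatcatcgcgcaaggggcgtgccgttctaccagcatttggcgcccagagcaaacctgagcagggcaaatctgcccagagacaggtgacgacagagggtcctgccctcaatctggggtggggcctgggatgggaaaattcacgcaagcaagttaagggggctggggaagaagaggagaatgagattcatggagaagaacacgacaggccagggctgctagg
B2m, chr2:122147437-122147736, plus strand: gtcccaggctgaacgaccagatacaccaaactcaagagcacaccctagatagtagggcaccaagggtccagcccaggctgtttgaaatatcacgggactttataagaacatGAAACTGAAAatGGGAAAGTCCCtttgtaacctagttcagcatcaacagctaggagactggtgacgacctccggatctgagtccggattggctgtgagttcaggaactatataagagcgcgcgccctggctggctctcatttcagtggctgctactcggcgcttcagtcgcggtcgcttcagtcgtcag
Calr, chr8:84846882-84847181, minus strand: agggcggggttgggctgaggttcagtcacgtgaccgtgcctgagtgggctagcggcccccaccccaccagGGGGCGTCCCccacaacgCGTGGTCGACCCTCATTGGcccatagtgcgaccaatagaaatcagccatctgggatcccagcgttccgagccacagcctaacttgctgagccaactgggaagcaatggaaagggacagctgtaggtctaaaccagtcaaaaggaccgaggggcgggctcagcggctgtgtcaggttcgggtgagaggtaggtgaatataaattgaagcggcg
Tap1 and Psmb9 lie head to head on chromosome 17, with start sites 226 bases apart, and their windows share 275 bases. The searched motifs were the interferon response core (GAAA, any 2 bases, GAAA), the STAT-type palindrome (TTC, any 3 bases, GAA), an NF-kB-like motif (GGGA, any 4 bases, CC) and the endoplasmic reticulum stress element (CCAAT, any 9 bases, CCACG). They occur in 3.44%, 8.3%, 20.7% and 0.119% of all 32851 windows. The B2m window held the interferon core as GAAACTGAAA, starting 139 bases before the start site, and NF-kB-like letters on both strands from 127 and 126 bases before it. These NF-kB-like matches overlap each other. The Calr window held the stress element on its other strand as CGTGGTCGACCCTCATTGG, starting 162 bases before the start site, and an NF-kB-like match 180 bases before it. The Psmb8 window held 1 STAT-type match, TTCCCAGAA. The windows of Tap1, Psmb9, Tapbp, Pdia3 and Psmb10 held none of these letters.

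Most of the loading machinery read higher with CpG where a direction could be read, while the light chain and 2 of 3 immunoproteasome subunits did not pass the test. In CpG-A vs medium, 7 of 10 members were called, against 16.7% of all genes. Of these, 5 read higher (4.91% of all genes), 0 read lower (7.15% of all genes), and Tap1 and Tapbp had no readable direction (4.64% of all genes). In CpG-B vs medium, 7 of 10 were called, against 19.2% of all genes. There, 5 read higher (6.94% of all genes), 0 read lower (7% of all genes), and Tap1 and Pdia3 had no readable direction (5.27% of all genes). The same 7 genes were called in both: Tap1, Tap2, Tapbp, Tapbpl, Pdia3, Calr and Psmb9. B2m, Psmb8 and Psmb10 were called in neither. The median reading of the 10 members was 0.767 in CpG-A and 0.663 in CpG-B, beside -0.0213 and -0.0514 over all genes. These comparisons share the medium arrays.

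**Figure D1:**
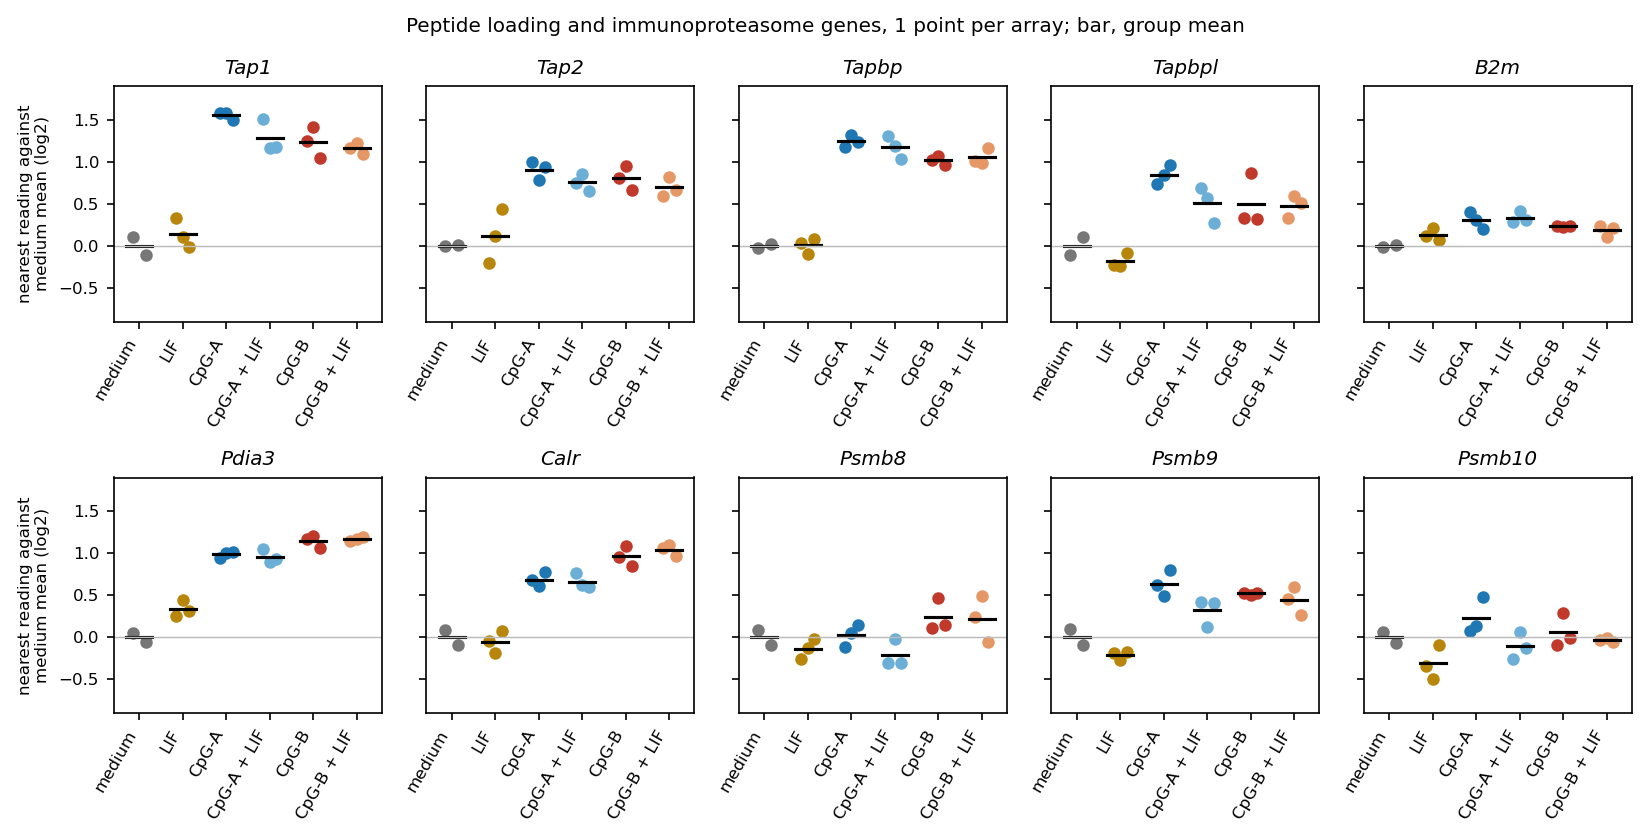
Nearest reading of each array against the mean of medium (y axis, log2) for the 10 genes in the 6 groups (x axis); points are arrays and bars are group means. The CpG arrays of Tap1, Tap2, Tapbp, Tapbpl, Pdia3, Calr and Psmb9 sit above the medium arrays, while those of Psmb8 and Psmb10 lie within 0.5 of the medium mean.

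Tap1 and Tap2 encode the subunits of the peptide transporter. Digits of Tap1 read 2.68 and 2.32 in medium, 7.47, 7.42 and 7.02 in CpG-A, and 5.9, 6.63 and 5.13 in CpG-B. The CpG arrays formed a tight cluster far from medium, and the CpG-A arrays lay beyond all those of CpG-B. This difference between the CpGs was not called (limma adjusted p = 0.142). Tap1 read 1.55 ± 0.15 (SE) in CpG-A vs medium, or -1.77, with limma adjusted p = 3.16e-06. In CpG-B vs medium it read 1.23 ± 0.15, or -2.09 (limma adjusted p = 1.46e-05). In other words CpG-A was either 2.93-fold higher or 3.41-fold lower. Tap1 had the widest spread of the members: its 17 arrays spanned 1.69 on the log2 scale, the only span above 1.66. In the comparison of CpG-B + LIF with LIF alone its direction was readable, at 1.02 ± 0.13 higher (limma adjusted p = 1.59e-05).

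Tap2 digits were 1.35 and 1.36 in medium, 2.7, 2.33 and 2.6 in CpG-A, and 2.37, 2.61 and 2.14 in CpG-B. Both CpG groups stood clear of medium and overlapped each other. Tap2 read 0.90 ± 0.16 higher with CpG-A (1.87-fold, limma adjusted p = 0.00055) and 0.80 ± 0.16 higher with CpG-B (1.75-fold, limma adjusted p = 0.00125).

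Tapbp encodes tapasin, which tethers class I molecules to the transporter, and Tapbpl encodes TAPBPR, a related peptide editor that works outside the loading complex. Digits of Tapbp were 3.38 and 3.49 in medium, 7.77, 8.57 and 8.11 in CpG-A, and 6.99, 7.2 and 6.71 in CpG-B. The lowest CpG-A array was above the highest CpG-B array, but CpG-A vs CpG-B was not called (limma adjusted p = 0.223). Tapbp read 1.24 ± 0.12 in CpG-A vs medium, or -2.08 (limma adjusted p = 3.67e-06), and 1.02 ± 0.12 higher in CpG-B (2.03-fold, limma adjusted p = 1.44e-05).

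Tapbpl digits were 1.19 and 1.38 in medium, 2.13, 2.3 and 2.49 in CpG-A, and 1.61, 2.33 and 1.59 in CpG-B. One CpG-B array, replicate 2, lay with the CpG-A arrays and the others lay between CpG-A and medium. Tapbpl read 0.85 ± 0.17 higher with CpG-A (1.8-fold, limma adjusted p = 0.00159) and 0.50 ± 0.17 higher with CpG-B (1.42-fold, limma adjusted p = 0.0464). The CpG-B call was marginal and was lost in 15 of 24 alternatives. It was lost without medium replicate 1 (0.40, adjusted p = 0.295), without CpG-B replicate 2 (0.32, adjusted p = 0.204), without medium replicate 3 (0.61, adjusted p = 0.0822) and with a replicate block (0.45, adjusted p = 0.0791). Leaving out any of 9 arrays of other groups kept the reading at 0.50 and gave limma adjusted p from 0.051 to 0.0551: LIF replicates 1, 2 and 3, CpG-A replicates 1, 2 and 3, CpG-A + LIF replicate 2, and CpG-B + LIF replicates 2 and 3.

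Pdia3 encodes ERp57, the disulphide isomerase bound to tapasin, and Calr encodes calreticulin, the chaperone that recognises the sugar chain of class I molecules. Against the mean of medium, whose Pdia3 arrays lay at 0.057 and -0.057, the CpG-A arrays read 0.945, 1.007 and 1.011. The CpG-B arrays read 1.163, 1.2 and 1.067. No CpG array came near medium, and the CpG-B arrays all lay above those of CpG-A. Between the CpGs Pdia3 was not called (limma adjusted p = 0.404). Pdia3 read 0.99 ± 0.12 higher with CpG-A (1.98-fold, limma adjusted p = 1.2e-05) and 1.14 ± 0.12 with CpG-B, or -2.18 (limma adjusted p = 3.6e-06).

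Calr digits were 1.36 and 1.21 in medium, 2.05, 1.95 and 2.19 in CpG-A, and 2.48, 2.72 and 2.31 in CpG-B. The order was the reverse of that seen for Tap1 and Tapbp, with CpG-B arrays above CpG-A arrays. In CpG-A vs CpG-B none of these genes was called (limma adjusted p = 0.134 for Calr). Calr read 0.69 ± 0.13 higher with CpG-A (1.61-fold, limma adjusted p = 0.000863) and 0.97 ± 0.13 higher with CpG-B (1.95-fold, limma adjusted p = 3.2e-05).

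B2m encodes beta-2-microglobulin, the light chain of every class I molecule. Its digits were 3.79 and 3.86 in medium, 5.04, 4.75 and 4.4 in CpG-A, and 4.51, 4.45 and 4.49 in CpG-B. The CpG arrays lay above medium without overlap, but the differences were small. In CpG-A vs medium the reading was 0.30 ± 0.12 (95% interval 0.06 to 0.55, limma adjusted p = 0.086), and in CpG-B vs medium 0.23 ± 0.12 (-0.013 to 0.47, limma adjusted p = 0.198). B2m spanned 0.422 over all 17 arrays, the narrowest span of the members, and neither reading passed the test.

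Psmb8, Psmb9 and Psmb10 encode the catalytic subunits LMP7, LMP2 and MECL-1 of the immunoproteasome. Of these, Psmb9 passed the test. Its digits were 1.74 and 1.53 in medium, 2.51, 2.3 and 2.83 in CpG-A, and 2.36, 2.32 and 2.35 in CpG-B. The CpG groups overlapped each other and stood clear of medium. Psmb9 read 0.64 ± 0.14 higher with CpG-A (1.56-fold, limma adjusted p = 0.00314) and 0.52 ± 0.14 higher with CpG-B (1.44-fold, limma adjusted p = 0.0119). Without medium replicate 3 both calls were lost, at 0.54 (limma adjusted p = 0.0609) and 0.43 (limma adjusted p = 0.141).

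Against the mean of medium, Psmb8 arrays in medium read 0.09 and -0.09, in CpG-A -0.111, 0.047 and 0.151, and in CpG-B 0.111, 0.473 and 0.152. The CpG-A arrays straddled medium. Psmb8 read 0.03 ± 0.17 in CpG-A vs medium (95% interval -0.32 to 0.38, limma adjusted p = 0.946) and 0.25 ± 0.17 in CpG-B vs medium (-0.10 to 0.60, limma adjusted p = 0.37). Psmb10 digits were 3.29 and 3.01 in medium, 3.31, 3.45 and 4.38 in CpG-A, and 2.95, 3.85 and 3.12 in CpG-B. Its readings were 0.23 ± 0.16 (-0.11 to 0.57, limma adjusted p = 0.429) and 0.06 ± 0.16 (-0.28 to 0.40, limma adjusted p = 0.86). These intervals leave room for changes of either gene up to 0.6 on this scale.

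**Figure D2:**
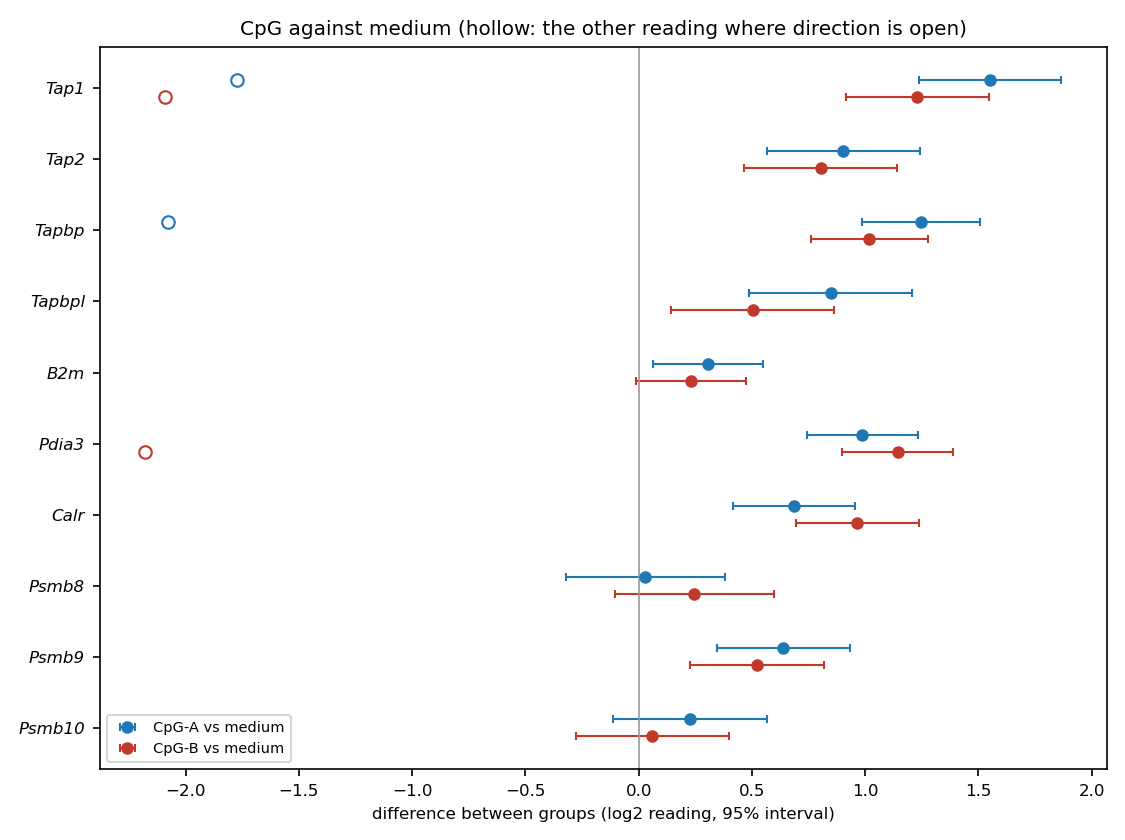
Differences of CpG-A and CpG-B from medium (x axis, log2 reading) for each gene (y axis), with 95% intervals from limma; hollow circles give the other reading where the direction is not readable. All 20 nearest readings lie above 0, from 0.03 for Psmb8 to 1.55 for Tap1, and the hollow circles for Tap1, Tapbp and Pdia3 lie at -1.77 or below.

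For all 10 genes the nearest readings around medium, CpG-A and CpG-B added up without a step of 3.32. The same held around these groups with LIF. For every member but Tap1 the arrays spanned too little for any other outcome. For Tap1 the other readings against medium, -1.77 with CpG-A and -2.09 with CpG-B, fit the 0.32 between the CpGs equally well. These sums therefore cannot decide the direction or size of any reading. Arrays of CpG and medium did not overlap for 9 of 10 members in CpG-A vs medium (41.1% of all genes) and for 9 of 10 in CpG-B vs medium (45.3% of all genes). The exceptions were Psmb8 with CpG-A and Psmb10 with CpG-B.

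Each immunoproteasome subunit takes the place of a constitutive one in the same position of the proteasome: Psmb8 for Psmb5, Psmb9 for Psmb6 and Psmb10 for Psmb7. Of the constitutive genes, Psmb6 and Psmb7 were called with both CpGs and Psmb5 with CpG-B. Psmb7 read 0.83 ± 0.14 higher with CpG-A (limma adjusted p = 0.000427) and 1.01 ± 0.14 higher with CpG-B (limma adjusted p = 5.37e-05). Psmb6 read 0.60 ± 0.17 and 0.59 ± 0.17 higher (limma adjusted p = 0.0205 and 0.0206). Psmb5 read 0.42 ± 0.16 with CpG-A (limma adjusted p = 0.0897) and 0.61 ± 0.16 higher with CpG-B (limma adjusted p = 0.0105).

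Taken within each array and set to 0 at the medium mean, Psmb10 relative to Psmb7 read -0.60 ± 0.19 (SD, n = 3) in CpG-A, -0.83 ± 0.21 in CpG-A + LIF, -0.95 ± 0.30 in CpG-B and -1.03 ± 0.14 in CpG-B + LIF. The medium arrays lay at -0.22 and 0.22, and LIF alone read -0.15 ± 0.24. All 12 CpG arrays were below all 5 arrays without CpG except that the highest CpG-A array, at -0.39, lay above the lowest LIF array, at -0.41. Psmb8 relative to Psmb5 read -0.39 ± 0.09 in CpG-A, -0.37 ± 0.19 in CpG-B, -0.73 ± 0.15 in CpG-A + LIF and -0.46 ± 0.12 in CpG-B + LIF, against 0.09 ± 0.16 in LIF. Its CpG arrays overlapped neither those of medium nor those of LIF. Psmb9 relative to Psmb6 read 0.04 ± 0.24 in CpG-A and -0.07 ± 0.25 in CpG-B, with arrays on both sides of medium. With LIF it read -0.28 ± 0.29 in CpG-A + LIF and -0.29 ± 0.14 in CpG-B + LIF, against -0.04 ± 0.30 in LIF alone, and these arrays overlapped those of LIF.

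For these ratios the 2-sided exact permutation test gave p = 0.1 in each comparison of CpG-A or CpG-B with medium, and of each CpG with LIF against LIF, for Psmb8 and Psmb10. That is the smallest p these group sizes allow, and it became 0.188 after Benjamini-Hochberg adjustment over 15 tests. Exact permutation p for Psmb9 lay between 0.3 and 1.

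**Figure D3:**
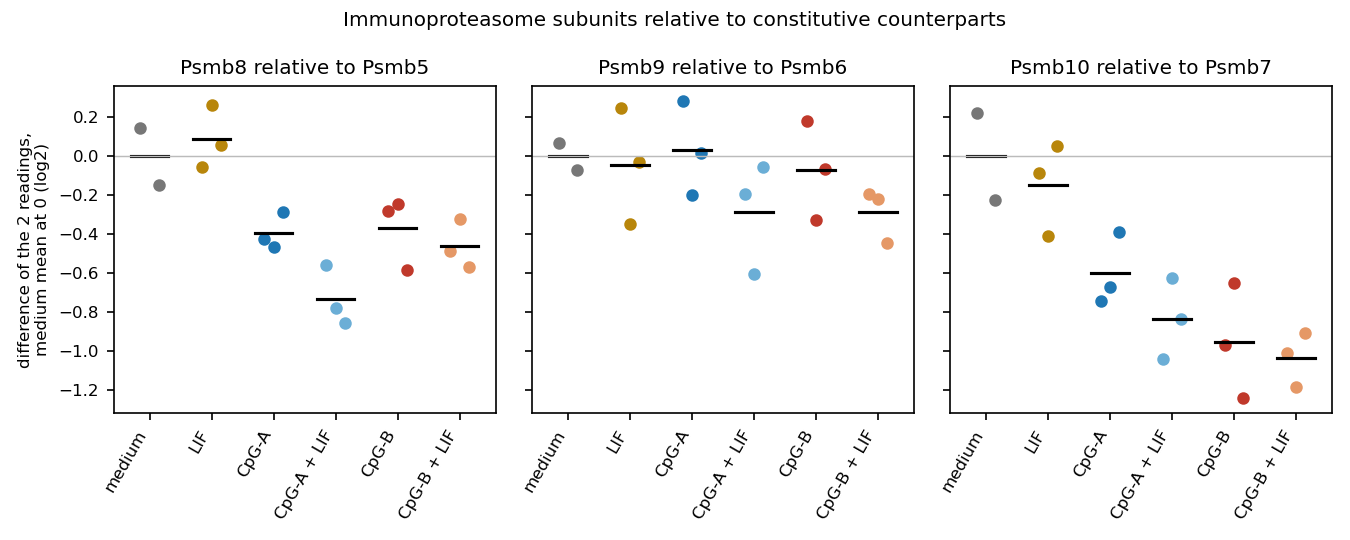
Reading of each immunoproteasome gene minus that of its constitutive counterpart in the same array (y axis, log2, medium mean at 0) by group (x axis); points are arrays and bars are group means. Psmb10 relative to Psmb7 lies lowest in CpG-B + LIF, at a mean of -1.03, while Psmb9 relative to Psmb6 stays between -0.29 and 0.04 on average.

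CpG-A vs CpG-B asked whether the classes of oligonucleotide differ for these genes. None of the 10 members was called, against 13% of all genes (limma). At an unadjusted p under 0.05 the count was 3, namely Tap1, Tapbpl and Calr. Tap1 read 0.32 ± 0.13 (95% interval 0.038 to 0.60, limma adjusted p = 0.142), Tapbp 0.23 ± 0.11 (limma adjusted p = 0.223) and Tapbpl 0.34 ± 0.15 (limma adjusted p = 0.17), all on the side of CpG-A. Calr read -0.28 ± 0.12 (limma adjusted p = 0.134) and Pdia3 -0.16 ± 0.10 (limma adjusted p = 0.404), on the side of CpG-B. Without CpG-B replicate 2, Tapbpl was called at 0.52 (limma adjusted p = 0.027).

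With LIF present, 1 of 10 members was called between the CpGs, against 16.9% of all genes (8% lower). Calr read -0.38 ± 0.12 (1.30-fold higher with CpG-B + LIF, limma adjusted p = 0.0288), with digits of 2.18, 1.97 and 1.93 in CpG-A + LIF and 2.67, 2.74 and 2.5 in CpG-B + LIF. The groups did not overlap. The call was lost without CpG-B + LIF replicate 1 (-0.37, adjusted p = 0.0832) or 2 (-0.35, adjusted p = 0.0949) and without CpG-A + LIF replicate 2 (-0.36, adjusted p = 0.0788) or 3 (-0.35, adjusted p = 0.101). Psmb8 read -0.44 ± 0.15 (limma adjusted p = 0.0512), just outside the threshold. It was called with a replicate block (-0.44, limma adjusted p = 0.0341) and with recentred arrays (-0.47, limma adjusted p = 0.0385). It was also called without CpG-B replicate 2 (-0.44, limma adjusted p = 0.0442), without CpG-A + LIF replicate 2 (-0.53, limma adjusted p = 0.0341) and without CpG-B + LIF replicate 3 (-0.58, limma adjusted p = 0.0169). The effect of LIF on Calr differed between CpG-A and CpG-B by -0.10 ± 0.16 (95% interval -0.44 to 0.24, limma adjusted p = 0.998).

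LIF itself left no called change in these genes. The count was 0 of 10 in LIF vs medium (0.81% of all genes called), 0 in LIF added to CpG-A (0.00506%) and 0 in LIF added to CpG-B (0.0608%), by limma. At an unadjusted p under 0.05 the counts were 1, 3 and 0. With the replicate number as a block, LIF added to CpG-B called 19 of all genes in place of 12, and again 0 members. Pdia3 was the first of these, at 0.34 ± 0.12 in LIF vs medium (95% interval 0.09 to 0.58, limma adjusted p = 0.269). Its LIF arrays read 0.252, 0.448 and 0.31 against the medium mean, above both medium arrays.

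Under CpG-A, Tapbpl read -0.34 ± 0.15 (limma adjusted p = 0.795), Psmb9 -0.32 ± 0.13 (limma adjusted p = 0.689) and Psmb10 -0.33 ± 0.14 (limma adjusted p = 0.765) when LIF was added. For these 3 genes the CpG-A and CpG-A + LIF arrays did not overlap, as held for 10.9% of all genes. The digits of Psmb9 were 2.51, 2.3 and 2.83 without LIF and 2.19, 1.77 and 2.17 with it. A nearest reading below 0 was found for 9 of 10 members there, with a median of -0.197 beside 0.00384 over all genes. Under CpG-B, 7 of 10 readings were below 0 and the median was -0.0349, beside 0.0043 over all genes. Over all genes, 51% read above 0 in each of these comparisons. The members come from the same arrays, so their readings are not separate evidence, and a joint shift was not tested.

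**Figure D4:**
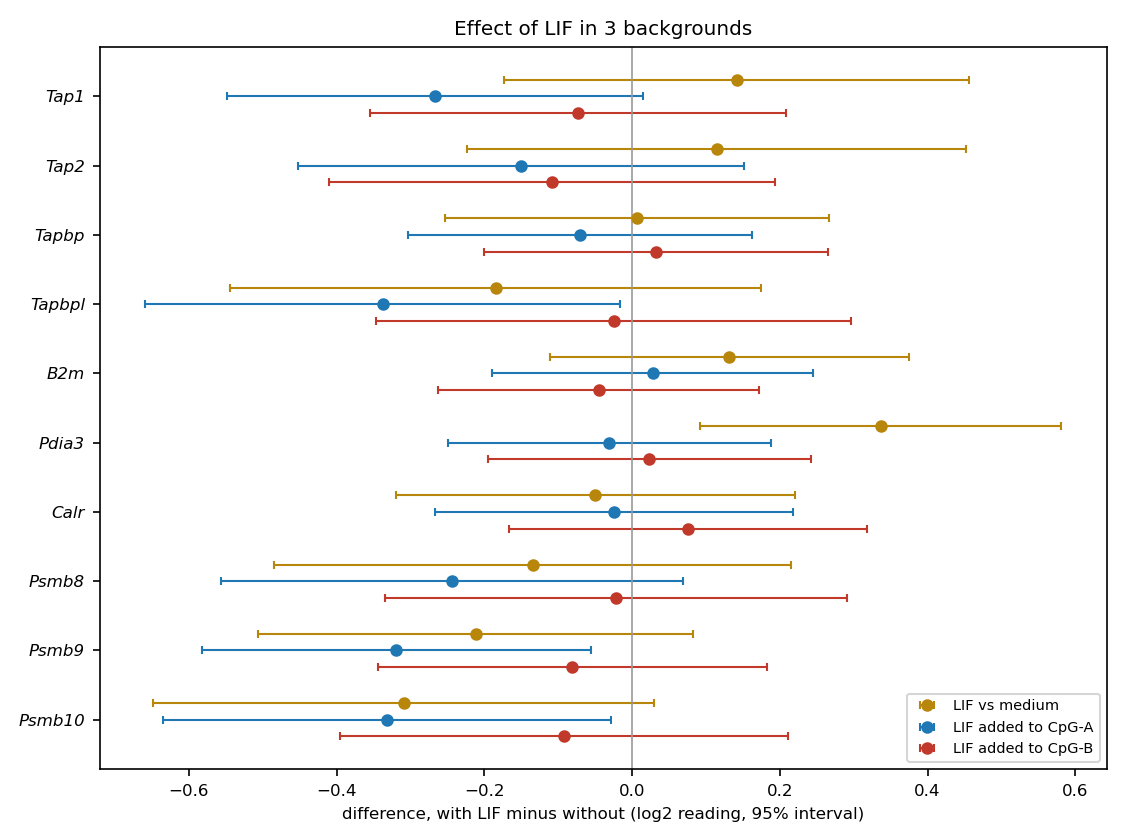
Difference made by LIF (x axis, log2 reading with 95% interval) for each gene (y axis) in medium, in CpG-A and in CpG-B. The readings lie between -0.34 and 0.34, and none passed the adjusted threshold.

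The interactions of LIF with CpG-A and with CpG-B, as well as the contrast of its effect in CpG-A with that in CpG-B, were each called for 0 of 10 members by limma (0.0506%, 0.137% and 0% of all genes). At an unadjusted p under 0.05 the counts were 1, 0 and 0. The single gene was Pdia3, whose interaction with CpG-A read -0.37 ± 0.16 (limma adjusted p = 0.655).

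In cells treated with LIF, the 7 genes named above were called again by either CpG. In CpG-A + LIF vs LIF, 7 of 10 members were called (17.4% of all genes), 5 higher (6.23%) and 2 without a readable direction (3.85%). In CpG-B + LIF vs LIF, 7 of 10 were called (25.4% of all genes), all of them higher (10.5%). These comparisons contrast other arrays than CpG vs medium and share the LIF arrays with each other. All come from the same fit over 17 arrays with a shared estimate of the spread, so they are not independent. Calr read 0.71 ± 0.12 higher with CpG-A + LIF (limma adjusted p = 0.000198) and 1.09 ± 0.12 higher with CpG-B + LIF (limma adjusted p = 1.84e-06). Tapbp read 1.17 ± 0.11, or -2.16, and 1.04 ± 0.11 higher. Psmb9 read 0.53 ± 0.13 (limma adjusted p = 0.00518) and 0.65 ± 0.13 (limma adjusted p = 0.000624), both higher. B2m read 0.20 ± 0.10 and 0.05 ± 0.10 and was not called. Psmb8 read -0.08 ± 0.15 and 0.36 ± 0.15, and was called in the second comparison without CpG-B + LIF replicate 3 (0.50, limma adjusted p = 0.0267).

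Placing all arrays of a gene at once, cut at their widest gap, put medium and LIF at the low end for 8 genes. These were Tap1, Tap2, Tapbp, Tapbpl, B2m, Pdia3, Calr and Psmb9. The cut picks 1 of the possible placements. It gives no direction against medium where none is readable, as for Tap1, Tapbp with CpG-A and Pdia3 with CpG-B. Pdia3 gave the clearest order, with medium lowest, then LIF at 0.337, then CpG-A + LIF at 0.957 and CpG-A at 0.988, and then CpG-B at 1.14 and CpG-B + LIF at 1.17. Neighbours in that order overlapped within a CpG class and nowhere else. Calr had the same upper order, from 0.662 for CpG-A + LIF to 1.04 for CpG-B + LIF. For Tap1, Tap2 and Tapbp the 4 CpG groups each overlapped the next, and CpG-A was at the top. For Psmb8 and Psmb10 every neighbour overlapped.

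Likeness among members was measured as the root mean square distance between their 5 group readings against medium, allowing for steps of 3.32. Tapbpl and Psmb9 were nearest each other, at 0.128. Tap1 and Tapbp followed at 0.189, and Psmb8 and Psmb10 at 0.19. Next came Tap2 with Calr at 0.214, Pdia3 with Tapbp at 0.224, Tap2 with Tapbpl at 0.24 and Pdia3 with Calr at 0.274.

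Outside the list, the 5028 non-members called with CpG-A or CpG-B gave the nearest patterns. Those nearest to Calr were Sel1l (0.0586), an adaptor of protein disposal in the endoplasmic reticulum, and Emc7 (0.064), part of a membrane protein insertase. For Psmb9 they were the translocon subunit Sec61a1 (0.0688) and the proteasome assembly factor Psmd9 (0.0786). For Tap2 they were Atp13a1 (0.047) and Derl1 (0.049), both proteins of the endoplasmic reticulum, and for Pdia3 Myo1h (0.0618) and the proteasome lid enzyme Psmd14 (0.0801). Tapbp was nearest to the autophagy receptor Sqstm1 (0.0739) and Nploc4 (0.0779), a cofactor of protein extraction. Tap1 was nearest to Slc14a1 (0.0463) and Edem2 (0.104), Tapbpl to Pcdhb22 (0.062) and Phf6 (0.0683), and B2m to Med13 (0.0565) and Xrn2 (0.0637). Slc14a1 was the closest of all named neighbours. Functions are given here for some neighbours only, and a function shared by them was not tested. For Psmb8 the distances were larger, at 0.129 for Ints7 and 0.165 for Aox3. Those of Psmb10 were larger too, at 0.14 for Gm9725 and 0.16 for Timm22. Psmb8, Psmb10 and B2m were not called with either CpG, and uncalled genes were left out of the neighbours. Their distances therefore depend in part on that choice. A short distance can also join genes whose true changes differ by a power of 10.

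The class I heavy chains, which pair with beta-2-microglobulin, were measured for 7 of 15 listed genes; the classical H2-K1 and H2-D1 were among those not analysed here. In CpG-A vs medium 5 of 7 were called (16.7% of all genes), 2 higher and 3 without a readable direction, with a median reading of 0.445. In CpG-B vs medium 4 of 7 were called (19.2% of all genes), 3 higher and 1 without a readable direction, with a median of 0.667. H2-M3, which presents bacterial formylated peptides, read 0.54 ± 0.16 and 0.81 ± 0.16 higher (limma adjusted p = 0.0264 and 0.00135). H2-T24 read 1.20 ± 0.17 (or -2.12) with CpG-A and 0.67 ± 0.17 higher with CpG-B. H2-Q4 read -1.34 ± 0.17, or 1.98, with CpG-A and 1.43 ± 0.17, or -1.89, with CpG-B. Its nearest readings do not add up with the 0.54 ± 0.16 between the CpGs. The pair 1.98 and 1.43 does, and so does the pair -1.34 and -1.89, so its direction against medium cannot be read. Class I genes are near copies of each other, so their probe sets may share signal.

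Among known regulators of class I genes, CpG-A vs medium called 5 of 13 measured (16.7% over all genes) and CpG-B vs medium called 4 (19.2% over all genes). Nlrc5, the class I transactivator, read -1.17 ± 0.32 (or 2.15) and -1.24 ± 0.32 (or 2.08), with limma adjusted p of 0.0154 and 0.00911. Rfx5, which binds the promoters of class I and class II genes, read 0.71 ± 0.19 and 0.84 ± 0.19 higher. Relb, an NF-kB subunit, read 1.64 ± 0.18 (or -1.68) with CpG-A and 1.08 ± 0.18 higher with CpG-B. Rfxap, a partner of Rfx5, and Creb1 read lower with CpG-A, at -0.78 (limma adjusted p = 0.0036) and -0.75 (limma adjusted p = 0.00564). Irf1, an interferon-induced activator of this pathway, was not called against medium by either CpG (0.55 ± 0.22 and -0.41 ± 0.22) and read 0.96 ± 0.20 higher with CpG-A than with CpG-B (limma adjusted p = 0.00265).

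Of 8 measured constitutive subunits, activators and assembly factors of the proteasome, 2 read higher with CpG-A (4.91% of all genes) and 4 with CpG-B (6.94% of all genes), and none read lower in these comparisons. Psme1 and Psme2, the interferon-inducible activator subunits, were not called against medium (0.30 ± 0.16 and 0.58 ± 0.25 with CpG-A, 0.21 ± 0.16 and 0.71 ± 0.25 with CpG-B). In cells treated with LIF, CpG-A called 6 of these 8 genes (17.4% of all genes) and CpG-B 7 (25.4% of all genes). Both activator subunits were among them. Psme1 read 0.49 ± 0.14 and 0.61 ± 0.14 higher (limma adjusted p = 0.0205 and 0.00343). Psme2 read 0.99 ± 0.23 higher (limma adjusted p = 0.00424) and 1.23 ± 0.23, or -2.09 (limma adjusted p = 0.000428). In peptide trimming and other chaperones, 2 of 13 measured genes were called with CpG-A (16.7% of all genes), 1 higher and 1 lower, which is near the share over all genes. With CpG-B 7 of 13 were called (19.2% of all genes), 6 higher and 1 without a readable direction. The chaperone Hspa5 read 0.98 ± 0.12 higher with CpG-A. Erap1, the aminopeptidase that trims peptides inside the endoplasmic reticulum, read 0.81 ± 0.15 higher with CpG-B (limma adjusted p = 0.000823). In CpG-A vs CpG-B, 4 of these 13 genes were called (13% of all genes), all lower with CpG-A. Erap1 was the largest of them at -1.02 ± 0.14 (limma adjusted p = 6.31e-05), and Lap3, Tpp2 and P4hb were the others. By limma 0 of the 41 genes on these 4 lists were called for LIF against medium (0.81% of all genes). The count was also 0 on top of CpG-A (0.00506%) and on top of CpG-B (0.0608%). In each of these comparisons 2 had an unadjusted p under 0.05.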

How the data were processed

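Total RNA of 17 samples was hybridised to Affymetrix arrays. Per the submitters' processing notes, the deposited values were made with RMA; the sources used here state no version or settings. The deposited table, per the file headers, has 1 column per array. Of its 419560 cells all but 1 have lost the decimal mark; 90% have 10 digits, and 32% lead with 1 and 4.95% with 9, as linear values do. The log2 of the digits is known up to steps of 3.32.

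A gene was represented by the single-symbol probe set with the most listed accessions (21354 probe sets have 1 symbol, 1275 several and 2051 none). Within a group each array was placed at the shortest distance from the circular group mean. limma 3.58.1 in R 4.3.3 was fitted with 1 coefficient per group over all 6 groups (11 residual degrees of freedom), each contrast was folded to its nearest reading, and Benjamini-Hochberg adjustment ran over 19751 genes for each of 12 comparisons. No gene was filtered, since levels are lost. Interactions are differences of nearest readings. The procedure was tested on simulated data for CpG-A vs medium with 19751 genes and normal noise. At each size 50 genes were changed, in CpG-A only. It called 10%, 80% and 98% of genes changed by 0.5, 1 and 1.5 on the log2 scale, and 76% of those changed by 2.3. The data called 3300 genes in this comparison, so the adjusted threshold was looser there. These shares therefore do not carry over to the data. The sign was right for 42 of the 49 called at 1.5 and for 0 of the 38 called at 2.3. A true change near 2.3 can thus be read as a smaller change in the wrong direction, within the limit on direction.

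All members are named. Of companion lists, those called in a comparison are named, at most 4 per list by smallest adjusted p. Others were chosen after their values were seen: Nlrc5 with CpG-A, uncalled readings of Psmb5, Irf1, Psme1 and Psme2, and Psme1 and Psme2 in cells treated with LIF. The 2 nearest non-members are named for likeness. Members, lists, motifs and the limit on direction were chosen with earlier results of these data known. Alternatives were 1 unfolding of all arrays at their widest gap, a replicate block, compared groups only, recentred arrays, genes within 1.66 only, robust moderation, mean of probe sets and each array left out. No array pair within a group held identical values. The labels number the arrays in a second field as well, by a group that equals the replicate number and is not explained. Deviations of same-numbered arrays correlated above 0.1 in 6 of 40 pairs, against 2 of 80 with different numbers. All 3 pairs of CpG-B with CpG-B + LIF did (0.126 to 0.243), so results with the number as a block are given as well. The labels state no pairing. Deviations within a group sum to 0, so these 3 pairs are not independent. The printed readings, intervals and p-values of LIF added to CpG-B come from the fit without the block. No other groups had every pair above 0.1. Promoter windows came from RefSeq.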

Additional observations from a re-analysis of the deposited data

How the results depend on the processing

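Of 29 called readings of the 10 genes, 25 kept their call in each of the alternatives run, and the sign of the nearest reading reversed for 0. The alternatives again take the nearest reading or 1 placement of the arrays, so they do not test direction. Some of the 29 have no readable direction. Tap1 could not be tried among genes spanning at most 1.66. The remaining 4 were Tapbpl in CpG-B vs medium, Psmb9 in both CpG comparisons with medium, and Calr between the CpGs with LIF. The number of members called between CpG-A + LIF and CpG-B + LIF, 1 here, was 2 with a replicate block, 2 with recentred arrays and 0 with the compared groups only, and ranged from 0 to 2 when 1 array was left out. Between CpG-A and CpG-B it ranged from 0 to 1 when 1 array was left out. The cause was not tested. Leaving out 1 array gave 6 to 7 members in CpG-A vs medium and 5 to 7 in CpG-B vs medium.

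The replicate block called Psmb8 between the CpGs with LIF (-0.44, limma adjusted p = 0.0341), lost Tapbpl in CpG-B vs medium and changed no other call of a member. Replicate numbers are shared by the groups, and 14 of 17 arrays correlated best with an array of their own number. The correlations were low (median 0.016), and every pair exceeded 0.1 for CpG-B with CpG-B + LIF only. A pairing by number is thus a hint from the data and not the design, for these groups too.

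Over all genes, CpG-A vs medium called 3300 genes and 2128 without medium replicate 1, CpG-B vs medium 3795 and 2451 without medium replicate 3, and LIF vs medium 160, 34 without medium replicate 1, 88 without LIF replicate 1, 16 without medium replicate 3 and 17 with the compared groups only. With genes spanning at most 1.66 the counts were 1879, 2124 and 13, CpG-A vs CpG-B gave 1292 in place of 2560, and the CpGs with LIF gave 1947 in place of 3339 against each other and 1851 and 3101 in place of 3430 and 5025 against LIF. Over the alternatives LIF added to CpG-A called 0 to 12 genes (here 1), LIF added to CpG-B 0 to 19 (here 12), and the interactions 0 to 36 (here 10), 0 to 53 (here 27) and 0 to 8 (here 0). A medium group of 1 array is assumed to vary like the others. A limit of 0.83 on direction would leave 2 members higher in CpG-A vs medium and 3 in CpG-B vs medium. Against LIF it would leave 5 higher with CpG-A + LIF and 4 with CpG-B + LIF. Levels, signal over background and changes beyond 3.16-fold cannot be recovered from these digits.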
